A study of Zea mays with 8 samples.

Results

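The starchy endosperm is the storage tissue of the maize kernel, and its cells fill with starch granules and with zeins, the storage proteins of maize. The aleurone is the outer cell layer of the endosperm. It stays alive in the mature kernel, whereas starchy endosperm cells die as the kernel matures. Described here are the genes with higher transcript levels in the starchy endosperm at 22 than at 18 days after pollination (DAP).

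RNA was sequenced from kernels of the inbred line B73, with no other genotype and no treatment. The groups were starchy endosperm at 22 DAP, starchy endosperm at 18 DAP, aleurone at 22 DAP and aleurone at 18 DAP, with 2 biological replicates each and 8 libraries in all. Per the labels, kernels came from replicate plants grown in a greenhouse, and the tissues were peeled apart mechanically after thawing. The labels do not say how many kernels were pooled. Levels are given as TPM, a share of each library's transcripts corrected for gene length.

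A gene was a member when its TPM in the lower of the 2 libraries at 22 DAP was at least 5 and at least 1.5 times its TPM in the higher of the 2 libraries at 18 DAP, both in starchy endosperm. Of 39475 gene IDs, 123 met this rule, or 0.312%. Of the 3815 genes with at least 5 TPM in both starchy endosperm libraries at 22 DAP, the members were 3.22%. The same rule turned round, which asks for higher levels at 18 DAP, was met by 459 of 4855 genes, or 9.45%. The members were thus chosen by TPM in these 4 libraries, so their starchy endosperm values are a description and support no test.

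Total expected counts ran from 2473036 to 11529170 per library. Among the starchy endosperm libraries, replicate 2 at 22 DAP stood apart with 9335 detected genes, against 16720 in replicate 1 at that age and 14186 and 18172 at 18 DAP. It was not the shallower library, with 6767595 expected counts against 2473036 in replicate 1. In every group of both tissues replicate 2 had more counts and fewer detected genes than replicate 1. The tissue labels were checked against marker genes. The share of all TPM that belonged to the 26 zeins was 14.1 and 14.7% in aleurone and 60.7 and 62.8% in starchy endosperm at 22 DAP. At 18 DAP this zein share was 11.7 and 11.98% in aleurone, against 59.1 and 61.0% for starchy endosperm. The 12 aleurone markers summed to 11119 and 31547 TPM in aleurone at 22 DAP and to 53.7 and 83.1 TPM in starchy endosperm at that age. They summed to 19135 and 38928 TPM in aleurone at 18 DAP and to 44.9 and 55.4 TPM in starchy endosperm at that age. Of these markers, vp1, c1, r1, a1 and bz1 were at 0 in all 4 starchy endosperm libraries. In aleurone c1 was at 0 as well and r1 had at most 1.12 TPM, so nothing is read from their zeros. At 18 DAP aleurone had 0.32 and 0.0 TPM of a1 and 0.0 and 2.07 TPM of bz1. Only vp1 among them was well above 0 in aleurone at both ages. It had 23.5 and 61.9 TPM there at 22 DAP and 34.1 and 47.7 TPM at 18 DAP. Markers of the basal transfer layer, the embryo, the embryo surrounding region, the pericarp and photosynthesis each summed to under 7 TPM in every starchy endosperm library. In aleurone the pericarp markers summed to 114.57 and 99.7 TPM at 22 DAP, against 46.55 and 44.25 TPM at 18 DAP. The embryo markers, mostly rab17, summed there to 68.5 and 116.79 TPM at 22 DAP, against 49.72 and 79.83 TPM at 18 DAP. The other lists summed to at most 15.44 TPM in aleurone. The source of these transcripts was not tested.

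The number of members depended on single libraries. Without replicate 1 at 22 DAP 1849 genes met the rule, and without replicate 2 at that age 497 did. Without replicate 1 at 18 DAP 717 genes met it, and without replicate 2 at that age 289 did. Replicate 1 was the lower library at 22 DAP for 100 of the 123 members, against 54.7% of the 3815 genes. Replicate 1 was the higher library at 18 DAP for 101 members, against 59.4%.

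Most members were genes of low level in this tissue. The lower TPM at 22 DAP had a median of 9.86 and ran from 5.0 to 94.79, with 64 members under 10 TPM, 37 between 10 and 20 TPM and 22 at 20 TPM or more. The ratio of that TPM to the higher one at 18 DAP had a median of 1.82 and was at least 2 in 42 members, at least 3 in 11 and at least 5 in 6. The summed TPM of the members was 2446 ± 721 at 22 DAP and 799 ± 220 at 18 DAP (SD, n = 2 each). In starchy endosperm replicates 1 and 2 the median member had 29 and 112 expected counts at 22 DAP, and 21 and 46 at 18 DAP. In bulk tissue, fewer cells of a type and less RNA per cell cannot be told apart.

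Read counting limits how firmly the smaller values can be taken. The software that estimated the levels, RSEM, also gave a credibility interval for each TPM, at a level that the file headers do not state. In 33 of the 123 members both intervals at 22 DAP lay above both at 18 DAP, among them acpt1, hmg2, MNB1B, sod9, nfa101 and a2. The same held for 1.13% of the 3815 genes, but the rule used these libraries, so nothing is read from the count. In 11 members a library at 22 DAP held fewer than 10 counts. At 18 DAP 19 members were listed at 0 in replicate 2, though none in both replicates. Replicate 2 was the deeper library at that age, with 11529170 expected counts in all, against 3185962 in replicate 1. The reason for these zeros was not tested. The standard deviation that RSEM gave for a count, which grows where reads are shared between genes, was over 5% of the count in 10 members (8.13%) and in 142 of the 3815 genes (3.72%). Both GRMZM2G465977, at 51.8%, and GRMZM2G087463, at 21.4%, are therefore uncertain.

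Of the 123 members, 94 were found in the reference gene table and 13 carried a gene name there. The named members with known roles were genes of chromatin, lipid carriage, translation, antioxidant defence, membrane traffic and pigment or vitamin synthesis. The reference table gave no product for the others, and they are called by their IDs.

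The named members hmg2, MNB1B, nfa101 and ALF6 are described together for their known roles at chromatin, a grouping made after the names were seen. HMG-box proteins bend DNA and bind to chromatin with little sequence preference. The HMG-box gene hmg2 had 95.4 and 87.6 TPM in starchy endosperm at 22 DAP, against 49.0 and 26.6 TPM at 18 DAP. Another HMG-box gene, MNB1B, had 36.3 and 71.2 TPM at 22 DAP, against 23.1 and 17.0 TPM at 18 DAP. The 2 ages were apart for both genes, by more than the gap between replicates for hmg2 and by less than the gap between the replicates at 22 DAP for MNB1B. The nucleosome assembly gene nfa101 had 14.0 and 13.5 TPM at 22 DAP, against 7.06 and 3.38 TPM at 18 DAP. ALF6, of the Alfin-like family of PHD-finger proteins that bind histone tails, had 8.31 and 17.9 TPM at 22 DAP, against 4.19 and 1.90 TPM at 18 DAP. ALF6 was also 1 of 6 members whose most abundant transcript changed between the ages, out of 65 members with more than 1 annotated transcript. The same transcript led in all 4 starchy endosperm libraries in 23 of the 65, and in most of the others replicates of an age differed. The share over other genes was not counted, so nothing is read from the change in ALF6.

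The highest mean TPM of any member at 22 DAP belonged to acpt1, an acyl carrier protein, which holds the growing chain in fatty acid synthesis. It had 87.8 and 128 TPM at 22 DAP, against 53.1 and 34.5 TPM at 18 DAP. The phospholipid transfer protein gene plt1 had 23.4 and 23.0 TPM at 22 DAP, against 15.1 and 13.2 TPM at 18 DAP. Its replicates lay closer together than those of the other named members at 22 DAP. In aleurone plt1 had the highest mean TPM of any member, with 6875 and 16977 TPM at 22 DAP and 14636 and 28034 TPM at 18 DAP.

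Aleurone transcripts bear on plt1 and on prp2, which had 6.25 and 18.3 TPM in starchy endosperm at 22 DAP, against 3.47 and 2.07 TPM at 18 DAP. In aleurone prp2 had 2368 and 5355 TPM at 22 DAP and 4231 and 8309 TPM at 18 DAP. Mean TPM of aleurone over starchy endosperm at 22 DAP was 514 for plt1, and 3 members, plt1, prp2 and GRMZM2G091054, exceeded 100. The other 11 aleurone markers together summed to 30.3 and 60.1 TPM in starchy endosperm at 22 DAP, against 29.8 and 42.2 TPM at 18 DAP, so the ages overlapped. Most of each sum was sal1 and nkd1, and sal1 alone had 43.89 TPM in replicate 2 at 22 DAP. The marker ole1 had 4.48 and 6.13 TPM in starchy endosperm at 22 DAP, against 3.92 and 8.59 TPM at 18 DAP. For ole17 the values were 0.41 and 0.93 TPM, against 0.99 and 2.25 TPM. The part of aleurone RNA in the values of plt1, prp2 and GRMZM2G091054 was not tested.

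The remaining named members covered single steps of several processes. The superoxide dismutase gene sod9, whose enzyme removes superoxide, had 34.7 and 41.2 TPM at 22 DAP, against 6.59 and 9.80 TPM at 18 DAP. The ribosomal protein gene rps21b had 26.7 and 79.0 TPM at 22 DAP, against 9.11 and 13.01 TPM at 18 DAP. The replicates of sod9 at 22 DAP were close, whereas those of rps21b differed by more than the gap between the ages. The anthocyanin synthesis gene a2, which acts late in that pathway, had 6.70 and 12.5 TPM at 22 DAP, against 2.09 and 2.00 TPM at 18 DAP. SMK2, needed for vitamin B6 synthesis, had 9.32 and 16.2 TPM at 22 DAP, against 6.09 and 4.09 TPM at 18 DAP. Both stayed under 20 TPM in every starchy endosperm library.

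Membrane-associated proteins were present through yptm3 and Ann10. The Rab-type small GTPase gene yptm3, of a family that directs vesicle traffic, had 14.1 and 17.8 TPM at 22 DAP, against 8.99 and 2.48 TPM at 18 DAP. Ann10, an annexin, a protein that binds membranes in the presence of calcium, had 8.56 and 23.0 TPM at 22 DAP, against 3.99 and 2.75 TPM at 18 DAP. In both genes the ages did not overlap, which the rule for members requires.

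**Figure D1:**
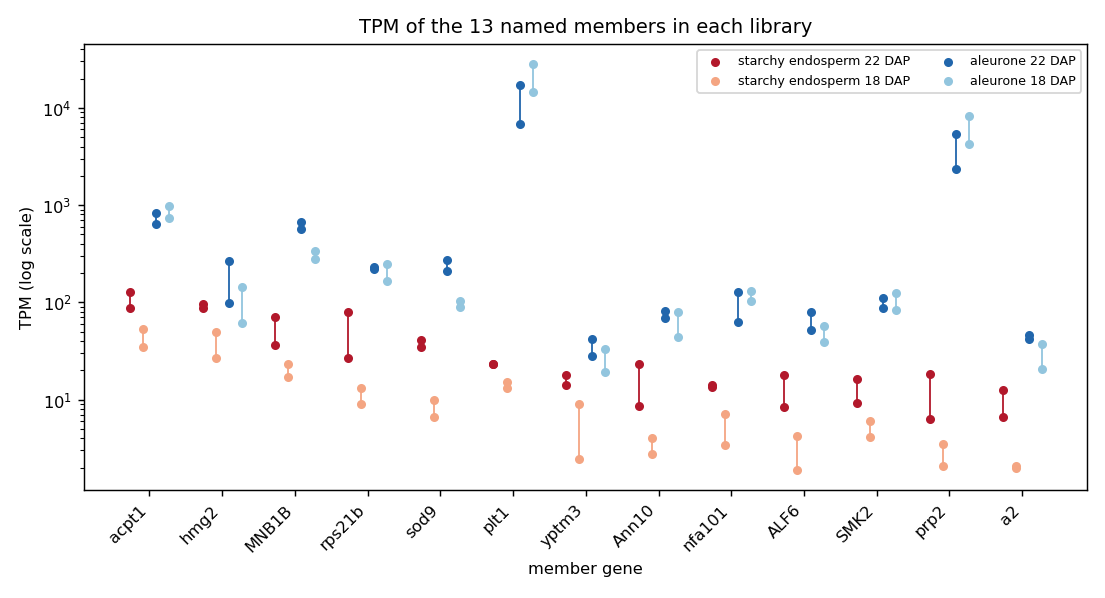
TPM on a log scale of the 13 named members, ordered by mean TPM in starchy endosperm at 22 DAP. Each point is 1 library and each line joins the 2 replicates of a group. Starchy endosperm at 22 DAP lies above 18 DAP in every gene because the rule required it, and plt1 and prp2 lie far above the other named members in aleurone.

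Members without a gene name included several of the highest levels. GRMZM2G074898 had 105 and 94.8 TPM at 22 DAP, against 50.9 and 50.9 TPM at 18 DAP, with replicates close at both ages. GRMZM6G625730 had 62.8 and 91.9 TPM at 22 DAP, against 39.7 and 21.3 TPM at 18 DAP. GRMZM5G828887 had 21.0 and 136 TPM at 22 DAP, against 11.2 and 1.06 TPM at 18 DAP. Its mean at 22 DAP rests mostly on replicate 2. The same holds for GRMZM2G373011, with 5.45 and 85.0 TPM at 22 DAP, against 1.10 and 0.00 TPM at 18 DAP.

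The largest ratios belonged to genes close to 0 at 18 DAP. GRMZM2G045188 had 14.8 and 11.3 TPM at 22 DAP, against 0.36 and 0.00 TPM at 18 DAP, a ratio of 31.3 between the lower library at 22 DAP and the higher at 18 DAP. GRMZM2G465977 followed with a ratio of 8.48 and GRMZM2G091054 with 7.50. GRMZM2G091054 had 9.90 and 27.0 TPM at 22 DAP, against 1.32 and 0.00 TPM at 18 DAP.

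Genes close to the thresholds show where the set ends. Just inside the fold threshold were GRMZM2G012326, GRMZM2G083497 and GRMZM2G381744 with a ratio of 1.51 each and GRMZM2G103896 with 1.52. Just outside were GRMZM5G806630 and GRMZM5G897604 with 1.49 each, and GRMZM2G098305 and GRMZM5G801369, whose ratios round to 1.5. For the level, the members GRMZM2G517332, GRMZM2G012326, GRMZM2G021170 and GRMZM2G172357 had 5.0, 5.04, 5.06 and 5.07 TPM. The genes just under it, GRMZM2G002396, GRMZM2G104012, GRMZM2G040387 and GRMZM2G454176, had 4.95, 4.94, 4.92 and 4.90 TPM.

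Genes of grain filling were looked up by list. None of the 24 zeins with at least 5 TPM at 22 DAP was a member, and 3 of the 26 zeins met the rule turned round. None of the 10 genes of starch and sucrose metabolism at that level was a member, and 1 of 16 met the rule turned round. None of the 5 filling regulators at that level was a member. With 3.22% of all genes at that level among the members, counts of 0 in lists of this size are near the background, and nothing is read from them. The 9.45% that met the rule turned round is a share of genes with at least 5 TPM in both libraries at 18 DAP. The lists were counted over all genes found, so their counts for the rule turned round are not set against it. The starch and sucrose genes summed to 5493 and 5942 TPM at 22 DAP, against 7240 and 7670 TPM at 18 DAP. Among 8 chaperone and stress genes of the endoplasmic reticulum, 5 had at least 5 TPM at 22 DAP. None was a member and 3 of the 8 met the rule turned round. In the lists of 10 heat shock genes and of 8 genes of amino acid metabolism, 1 each met the rule turned round. Of the heat shock genes, 2 had at least 5 TPM at 22 DAP.

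In the other lists, members were rps21b among 14 ribosome and translation genes, sod9 among 14 genes of oxidative stress and glutathione, and plt1 among the 12 aleurone markers. The other ribosome and translation genes summed to 1224 and 1202 TPM at 22 DAP, against 1300 and 1395 TPM at 18 DAP. The other oxidative stress genes summed to 218 and 265 TPM at 22 DAP, against 195 and 259 TPM at 18 DAP. Lists of amino acid metabolism, glycolysis, late embryogenesis, cell death and proteases, defence, hormones and organelle-encoded genes held no member. In that order, 3, 10, 2, 2, 1, 0 and 3 of their genes had at least 5 TPM in both starchy endosperm libraries at 22 DAP. Those of the last list, atp1, nad1 and rps12, were matched by symbol alone. Whether their IDs are organelle genes was not checked. The members were 3.22% of all genes at that level, so nothing is read from the counts in these lists.

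**Figure D2:**
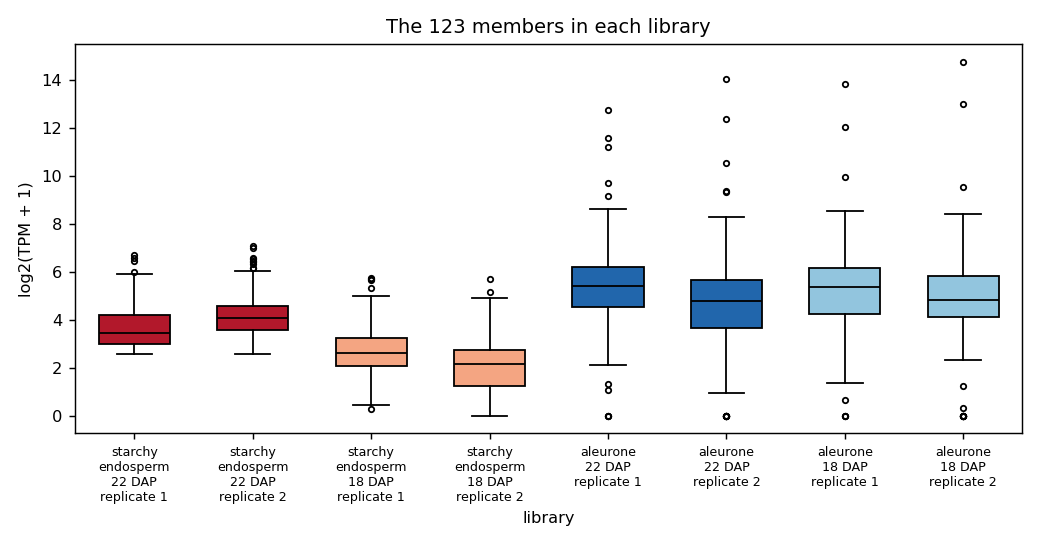
Levels of the 123 members as log2(TPM + 1) in each of the 8 libraries. Boxes span the quartiles with the median as a line, whiskers reach 1.5 box lengths and points lie beyond. The medians of both starchy endosperm libraries at 22 DAP lie above those at 18 DAP by choice, while the aleurone boxes overlap between the ages.

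The aleurone libraries were not used to choose the members, so the members' values there were not selected. They are not shown to be independent of the starchy endosperm values, since same-numbered libraries of the 2 tissues deviated together, with a correlation across 19058 genes of 0.223 at 22 DAP and 0.263 at 18 DAP. The median ratio of mean TPM, 22 over 18 DAP, was 1.00 over the members and 1.01 over the 3815 genes. The summed TPM of the members in aleurone was 25314 ± 6722 at 22 DAP and 34541 ± 11314 at 18 DAP (SD, n = 2 each). This sum was carried by plt1 and prp2. Without plt1 it was 13388 ± 421 at 22 DAP and 13205 ± 1840 at 18 DAP, and without both genes the order turned round, with 9526 ± 2534 at 22 DAP and 6935 ± 1044 at 18 DAP (SD, n = 2 each). Most of that last difference lay in a single member, GRMZM2G091054, whose values are given below, so it is not read as a rise of the remaining members. At 22 DAP the median member had 41.8 and 26.3 TPM in aleurone, against 40.4 and 27.4 TPM at 18 DAP, and the ages overlapped.

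Both aleurone libraries at 22 DAP were above both at 18 DAP for 15 members, where 13.1% of the 3815 genes did the same, and below both for 12 members, where 10.4% did. Of the 123 members, 121 were kept for the fit of expected counts over 19058 genes. The edgeR quasi-likelihood test called no member higher or lower in aleurone, with 0.0% of all genes called in either direction. At an unadjusted p under 0.05, 5 members were higher, against 0.661% of all genes, and no member was lower, against 0.367%. DESeq2 called 2 genes higher (0.0105%) and 1 lower (0.00525%), none of them a member. The median log2 fold change in this fit was 0.05 over the members tested and -0.01 over all genes.

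**Figure D3:**
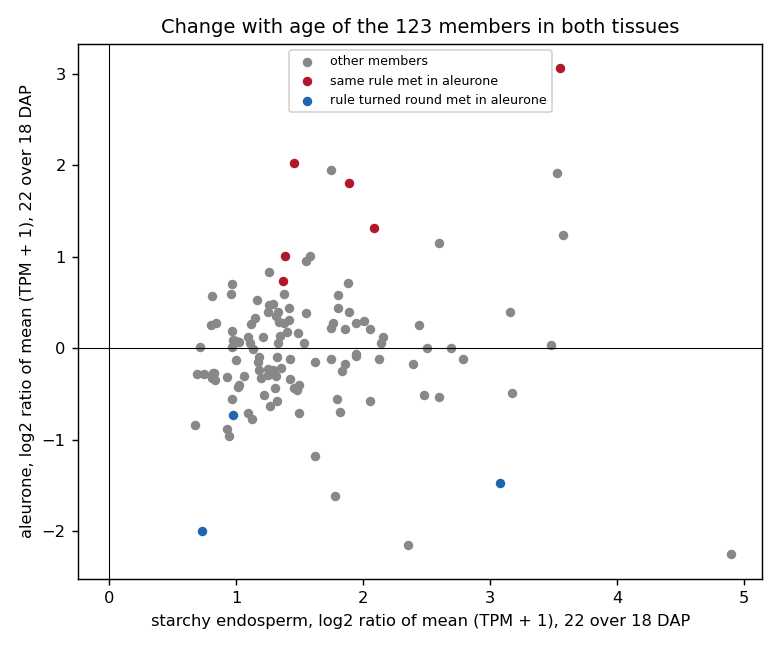
Ratio of mean TPM, with 1 added to each mean, at 22 over 18 DAP in starchy endosperm (x axis) and in aleurone (y axis), both on a log2 scale. Each point is 1 of the 123 members. All points lie right of 0 by choice, and on the aleurone axis 62 of 123 lie above 0.

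In aleurone, 6 members met the same rule by their own TPM, where 1.65% of the 3815 genes did. They are 4.88% of the members and 1.38% of the 434 genes that met the rule in aleurone, which are 3.64% of the genes with at least 5 TPM in both aleurone libraries at 22 DAP. MNB1B had 571 and 673 TPM in aleurone at 22 DAP, against 280 and 338 TPM at 18 DAP. The gene sod9 had 209 and 273 TPM in aleurone at 22 DAP, against 102 and 89.3 TPM at 18 DAP. For both genes the ages were apart in each tissue, which meeting the rule in both tissues requires, so nothing is read from it. The aleurone log2 fold change was 1.14 ± 0.45 (SE) for MNB1B and 1.31 ± 0.51 for sod9, with an edgeR adjusted p of 1.00 for each.

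GRMZM2G091054 had the largest aleurone difference of these 6, with 3079 and 1510 TPM at 22 DAP, against 375 and 173 TPM at 18 DAP. Its log2 fold change was 3.20 ± 0.78 (SE), with an edgeR adjusted p of 1.00. That call depended on the filter: with every gene of at least 1 count kept, the edgeR adjusted p was 0.00108, with 0.0184% of all genes called higher and 0.00368% lower. Over all alternatives tried, its adjusted p ran from 0.00108 to 1.00. GRMZM2G152041, with 49.4 and 45.5 TPM in aleurone at 22 DAP against 10.9 and 10.8 TPM at 18 DAP, had a log2 fold change of 2.28 ± 0.83 (SE) and an edgeR adjusted p of 1.00. GRMZM2G332838 had 174 and 214 TPM in aleurone at 22 DAP, against 53.2 and 55.6 TPM at 18 DAP. GRMZM2G171108 had 36.4 and 37.2 TPM in aleurone at 22 DAP, against 19.2 and 24.1 TPM at 18 DAP. Their log2 fold changes were 1.62 ± 0.70 and 0.88 ± 1.27 (SE).

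Aleurone ran the other way in 3 members, which met the rule turned round there, as did 1.34% of the 3815 genes. GRMZM2G311756 had 8.90 and 1.88 TPM in aleurone at 22 DAP, against 26.6 and 22.2 TPM at 18 DAP. In starchy endosperm it had 13.3 and 12.96 TPM at 22 DAP, against 7.54 and 7.50 TPM at 18 DAP. GRMZM6G829919 had 30.0 and 46.2 TPM in aleurone at 22 DAP, against 71.6 and 142 TPM at 18 DAP. GRMZM5G872997 had 9.25 and 7.51 TPM in aleurone at 22 DAP, against 14.6 and 14.5 TPM at 18 DAP. The edgeR test called none of the 3.

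For the named members the aleurone ages mostly overlapped. For acpt1 aleurone had 829 and 646 TPM at 22 DAP, against 989 and 744 TPM at 18 DAP. For hmg2 it had 267 and 98.0 TPM at 22 DAP, against 143 and 61.0 TPM at 18 DAP. For rps21b it had 219 and 232 TPM at 22 DAP, against 167 and 247 TPM at 18 DAP. In these 3 genes at least 1 library at 22 DAP lay within the range of the other age. The gene a2 was apart in aleurone too, with 41.8 and 45.6 TPM at 22 DAP, against 20.8 and 37.0 TPM at 18 DAP. ALF6 was not, with 79.0 and 51.9 TPM at 22 DAP, against 57.1 and 38.9 TPM at 18 DAP.

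The members were also set beside the tissues at each age. These values share the starchy endosperm libraries that chose the members, so nothing is read from their change with age or from their counts beside the other genes: low starchy endosperm levels at 18 DAP were part of the rule and raise the ratio at that age. On TPM, both aleurone libraries were above both starchy endosperm libraries for 77 members at 22 DAP, where 73.6% of the 3815 genes were, and for 108 members at 18 DAP, where 77.0% were. Aleurone was below in 14 members at 22 DAP, where 4.69% were, and in 1 member, GRMZM2G152041, at 18 DAP, where 6.4% were. Mean TPM of aleurone over starchy endosperm had a median of 2.39 at 22 DAP over the members and 2.80 over the 3815 genes. At 18 DAP the medians were 7.85 and 3.07.

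These directions depended on the scaling. On counts scaled to effective library sizes by edgeR's TMM factors, which set aside the most extreme genes, aleurone was above in 24 members at 22 DAP, where 14.9% of the 3815 genes were, and below in 63, where 41.6% were. At 18 DAP it was above in 63 members, where 15.3% were, and below in 14, where 46.6% were.

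**Figure D4:**
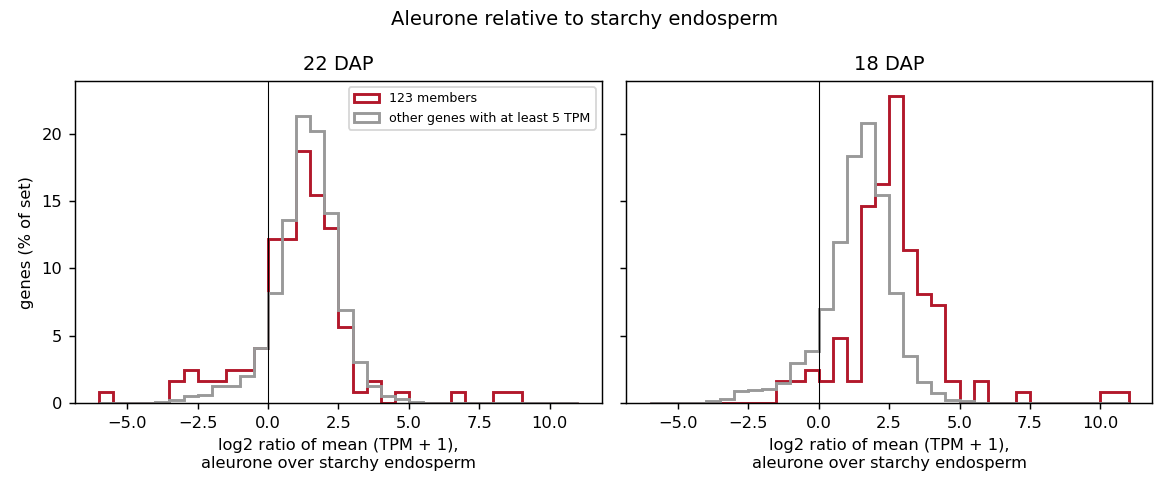
Ratio of mean TPM, with 1 added to each mean, of aleurone over starchy endosperm on a log2 scale, at 22 DAP (left) and 18 DAP (right). Lines show the share of the 123 members (red) and of the 3692 other genes with at least 5 TPM in both starchy endosperm libraries at 22 DAP (grey). The members' median was 1.204 at 22 DAP and 2.62 at 18 DAP, against 1.43 and 1.53 for the other genes.

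Most members were also detected in aleurone. Of the 123, 112 were detected in all 4 aleurone libraries and 1, GRMZM2G465977, was at 0 in all 4. The share of the 3815 genes detected in aleurone was not counted, so nothing is read from these counts. Mean TPM was lower in aleurone than in starchy endosperm in 21 members at 22 DAP, where 10.4% of the 3815 genes were lower, and in 7 at 18 DAP, where 11.6% were. The starchy endosperm side of both counts was used by the rule. GRMZM2G127774 had 22.3 and 18.5 TPM in aleurone at 22 DAP, against 59.3 and 54.6 TPM in starchy endosperm at that age. On TMM-scaled counts GRMZM2G127774 was also lower in aleurone, as were 41.6% of the 3815 genes, so nothing is read from that. Its values rest on 5 and 11 expected counts in aleurone at 22 DAP and 16 and 39 in starchy endosperm. The members' annotated length had a median of 1157 bases, against 1440 bases for the 3815 genes.

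In starchy endosperm itself the fit called no gene at 22 against 18 DAP, 0.0% of all genes in either direction, so the members rest on the rule and not on a call. At an unadjusted p under 0.05 the fit had 172 genes higher (0.903%) and 483 lower (2.53%). DESeq2 called 8 higher (0.042%) and 20 lower (0.105%), and 1 of the 8 was a member, GRMZM2G091054. The rule chose the members by these libraries, so nothing is read from that call.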

How the data were processed

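Aleurone and starchy endosperm of maize B73 were sequenced at 18 and 22 DAP, with 2 replicates a group. Per the submitters' processing notes, Bowtie2 2.2.3 and RSEM 1.2.15 were run against B73 RefGen_v3. For each gene and library the authors deposited expected counts (estimated reads, unscaled) and TPM, per the file headers, beside RSEM's credibility intervals, posterior SDs and gene lengths. TPM is a share of a library, and zeins hold most of it in starchy endosperm. The strand setting and annotation were not given in the sources used here.

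Members came from TPM as deposited. Expected counts were rounded and fitted with edgeR 4.0.16 in R 4.3.3 (filterByExpr, TMM, 4 group means over all 8 libraries, Benjamini-Hochberg adjusted p under 0.05), after a check on simulated data. DESeq2 1.42.0 and limma 3.58.1 were alternatives. Names came from a reference table of Zm-B73-REFERENCE-NAM-5.0, where 18908 of 39475 IDs (47.9%) were found and 3 members matched 2 genes. The zein list was completed by a name pattern written after the reference names were seen.

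The rule for named genes took the 12 named members of highest mean TPM at 22 DAP, members in gene lists, genes beside the thresholds and the top 3 without a name. The gene a2 and the other IDs were chosen after their values were seen. The members and lists were chosen with earlier results of these data known.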

Additional observations from a re-analysis of the deposited data

Results flagged for a closer look

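Of the 12 members with both aleurone libraries lower at 22 than at 18 DAP, 3 also met the rule turned round in aleurone, with a 1.5-fold gap and at least 5 TPM at 18 DAP, as did 1.34% of the 3815 genes with at least 5 TPM in both starchy endosperm libraries at 22 DAP. The ratio of mean TPM in aleurone, 22 over 18 DAP, was 0.221 for GRMZM2G311756, 0.356 for GRMZM6G829919 and 0.576 for GRMZM5G872997. The difference between the tissues was not tested, because the starchy endosperm values chose the members.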

How the results depend on the processing

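The number of genes meeting the rule, 123, was 42 at a fold of 2, 261 at a lower fold threshold, 59 at a minimum of 10 TPM and 250 at a minimum of 2 TPM. It was 284 on TMM-scaled counts, with 91 of the members (74.0%) among them, and 289 on TPM rescaled without zeins, which raises every other level. Leaving out 1 starchy endosperm library gave 289 to 1849 genes: 1849 without replicate 1 and 497 without replicate 2 at 22 DAP, and 717 without replicate 1 and 289 without replicate 2 at 18 DAP, since fewer libraries must then satisfy the rule. In 2 alternatives added after seeing the data, it was 33 with credibility intervals apart and 112 with at least 10 counts in each library at 22 DAP. In aleurone, 1 member, GRMZM2G091054, was called higher with no filter, where more genes were tested, and none in the other alternatives. No member was called lower in any. The members' median log2 fold change in aleurone ran from -0.07 to 0.17, and that of all genes was as low as -0.15 in limma on log2(TPM + 0.1). With a replicate block 0 members were called and the median was 0.04. Same-numbered replicates deviated together with r of 0.187 to 0.407 over 19058 genes in 6 pairs of groups, but the labels do not say that a number marks a shared plant. In starchy endosperm DESeq2, added after seeing the data, called 8 genes higher and 20 lower where edgeR called none, and edgeR without replicate 2 at 22 DAP also called none.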
